A study of Mus musculus with 3 samples.

Results

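The genes of nucleotide excision repair and base excision repair were followed in cells of mouse dorsal skin. These were 36 genes, picked by symbol from a list of the 2 pathways and not from their values, among the 32285 genes of each count matrix. Earlier results of these data were known when they were chosen. All 36 were present in the matrices. There were 3 single-cell libraries, each the only one of its group and each from an 8-week-old C57Bl/6 male in telogen, the resting phase of the hair cycle. WT_Ctrl was wild-type skin without irradiation. WT_UV was wild-type skin after 3 exposures to ultraviolet B (UVB), given every other day. RP_UV was skin of Rosa26-rtTA; Tre-Ptgs2 mice after 3 exposures, in which doxycycline drives rat Ptgs2, the gene of the prostaglandin-making enzyme Cox-2, in all tissues. Irradiated skin of both genotypes was taken at the same time point, and each library came from a single male mouse. Whether these wild-type mice received doxycycline is not given in the sources used here. All cell suspensions had been enriched for immune cells with CD45+ magnetic beads, so the keratinocytes and fibroblasts described here are cells that this step left behind.

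UVB joins neighbouring pyrimidines in DNA, and nucleotide excision repair is the pathway that removes these lesions in mammals. Either Xpc and the Ddb1-Ddb2 complex find the lesion anywhere in the genome, or a stalled RNA polymerase calls in Ercc6, Ercc8 and Uvssa. The TFIIH complex then opens the helix, Xpa and the Rpa proteins hold the site, Ercc5 and the Ercc1-Ercc4 nuclease cut out a short stretch, and Pcna-dependent synthesis and ligation close the gap. Base excision repair handles smaller lesions, such as oxidised bases and uracil, which a glycosylase removes before Apex1 cuts the strand. Several of these proteins, among them Pcna, Lig1 and Rpa1 to Rpa3, also act in DNA replication.

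Filtering kept 5309 WT_Ctrl cells, 5225 WT_UV cells and 6070 RP_UV cells, with a median of 4246, 10557 and 3774 UMIs (unique molecular identifiers, each marking 1 captured transcript) per cell. Pairs of libraries shared 8 to 11 cell barcodes and no barcode occurred in all 3. WT_Ctrl and RP_UV shared a flow cell, whereas WT_UV was sequenced on a different one, so run and group cannot be told apart in any comparison with WT_UV, and RP_UV over WT_Ctrl differs in UVB and genotype at once. Ptgs2, the gene of the transgene, was at 6.20 CPM (the UMIs of a gene scaled to 1e+06 UMIs of the class; 95% Poisson interval 4.55 to 8.24) in keratinocyte-like cells of WT_Ctrl, 7.39 CPM (5.48 to 9.74) in WT_UV and 671 CPM (652 to 691) in RP_UV. In macrophage-like cells it was at 10.5, 87.2 and 222 CPM. How far reads of the transgene count as the mouse gene was not tested.

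Cells were assigned to classes by marker genes, and each class is to be read as "X-like". Keratinocyte-like cells numbered 1137 in WT_Ctrl, 472 in WT_UV and 924 in RP_UV, and macrophage-like cells, with monocytes, 2039, 2415 and 2379. The 12 keratinocyte markers summed to 43065, 50771 and 58873 CPM in the first class and to 303, 279 and 369 CPM in the second, with none at 0. Dendritic-like and T-like cells of RP_UV were fewer, at 236 and 162, and held markers of other cells. In T-like cells of RP_UV the T markers summed to 4003 CPM, beside 10217 CPM of red blood cell, 4180 of macrophage, 2654 of neutrophil and 2069 of skeletal muscle markers, and in WT_Ctrl to 7645 CPM, beside 2.4, 1132, 12.1 and 12.9 CPM. Only 32 fibroblast-like cells of WT_UV were found, and their fibroblast markers summed to 2515 CPM against 119278 in WT_Ctrl, so this class is compared only between RP_UV and WT_Ctrl.

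Since every group had 1 library, no difference had a replicate check and none was tested. Levels are given with exact Poisson 95% intervals and ratios of levels with 95% intervals from the exact binomial split of the UMIs. These intervals cover counting error only. A gene is called higher or lower when its level differed by at least 1.5 times and the interval of the ratio left out 1. Each count of called repair genes stands beside the percentage of all measured genes that passed the same rule in the same comparison. In these 3′ libraries a UMI stands for 1 transcript molecule whatever its length, so levels were not scaled by gene length. How well each gene was captured and mapped was not tested, so the order of genes by level is approximate.

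The repair genes were expressed at low levels. In keratinocyte-like cells of WT_Ctrl, Rbx1, the RING subunit of the ubiquitin ligase that acts with Ddb1, led with 248 CPM (237 to 259), and Ogg1, the glycosylase for oxidised guanine, was lowest with 3.16 CPM (2.03 to 4.71). Rbx1, Gtf2h5, Ddb1, Pcna and Rad23b were the 5 highest in WT_Ctrl, and the 5 highest genes of a library held 46.8% of all UMIs of the list in WT_Ctrl, 51.2% in WT_UV and 50.5% in RP_UV. A summed level therefore follows these few genes, and the median over genes is given beside it. Counts of Pcna, Rbx1, Gtf2h5, Rpa3, Cul4a and Cul4b are less certain than the others because these genes have close copies or pseudogenes.

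Repair transcripts were measured in every class. Summed over the 36 genes, the level in WT_Ctrl was 1238 CPM in keratinocyte-like, 1354 in T-like, 1082 in macrophage-like, 1066 in fibroblast-like and 1028 in dendritic-like cells. T-like cells held the highest level of 13 genes and keratinocyte-like cells that of 12, but the interval stood apart from that of the next class for 5 and 1 of these. Xpc, the lesion sensor of global repair, was at 27.3 CPM in T-like and 26.2 in keratinocyte-like cells of WT_Ctrl, against 11.9 in dendritic-like cells, and the first 2 classes overlapped in their intervals.

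To examine UVB exposure in the wild type, keratinocyte-like cells of WT_UV were compared with those of WT_Ctrl. Krt14, a marker of this class, is used in the paper for keratinocytes of both the epidermis and the hair follicles. The paper describes UVB as penetrating little through the epidermis. The class was not split by depth in the skin, and how much light its cells received was not tested. The repair genes as a group stayed close to their unirradiated level. Those past the limit were Lig1, which was higher, and Xpc, Ddb2, Ercc8, Ercc6, Ercc2 and Parp1, which were lower. The summed level was 1238 CPM (1213 to 1264) in WT_Ctrl and 1254 (1228 to 1281) in WT_UV, a ratio of 1.01 (0.983 to 1.04). The median log2 ratio over the 36 genes was -0.04, beside -0.12 over all 11613 genes measured in this comparison. Of the 36 genes, 1 was called higher and 6 lower, beside 6.9% and 11.2% of all genes.

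Xpc was counted at 26.2 CPM (22.7 to 30.1) in WT_Ctrl, 14.8 (12.0 to 18.0) in WT_UV and 9.30 (7.15 to 11.9) in RP_UV. WT_Ctrl was highest and the intervals of WT_Ctrl and the irradiated libraries did not overlap. The ratio was 0.563 (0.438 to 0.72) for WT_UV over WT_Ctrl and 0.354 (0.263 to 0.473) for RP_UV over WT_Ctrl. Ddb2, the subunit that binds UV lesions and hands them to Xpc, was at 13.1 CPM (10.6 to 15.9) in WT_Ctrl and at 6.94 CPM (5.10 to 9.23) in both irradiated libraries. Its ratio over WT_Ctrl was 0.532 for each of them. Their partners did not share this difference: Ddb1, the adaptor of the ligase, was at 79.0, 81.0 and 81.5 CPM, and Rad23b, which stabilises Xpc, was at 65.8, 89.8 and 86.5 CPM, 1.37 times higher (1.21 to 1.54) in WT_UV than in WT_Ctrl and so under the limit. In GRCm38 coordinates Xpc lies at chr6:91489305-91515888 and Ddb2 at chr2:91211545-91237132.

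The other genes lower in WT_UV belonged to transcription-coupled repair, TFIIH and base excision. Ercc8, part of the ubiquitin ligase at stalled polymerases, was at 4.35 CPM in WT_Ctrl and 1.77 in WT_UV, from 33 and 12 UMIs, a ratio of 0.408 (0.192 to 0.810). Ercc6, the ATPase that recognises the stalled polymerase, was at 8.17 and 5.17 CPM with a ratio of 0.633 (0.406 to 0.973). Ercc2, the helicase of TFIIH, was at 6.59 and 3.10 CPM with a ratio of 0.471 (0.269 to 0.798). These are low counts, and with each cell thinned to 2000 UMIs the Ercc6 and Ercc2 ratios lay above 1. Parp1, which senses strand breaks, was at 29.1 CPM (25.4 to 33.2) in WT_Ctrl and 18.6 (15.5 to 22.2) in WT_UV, a ratio of 0.639 (0.509 to 0.799).

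**Figure D1:**
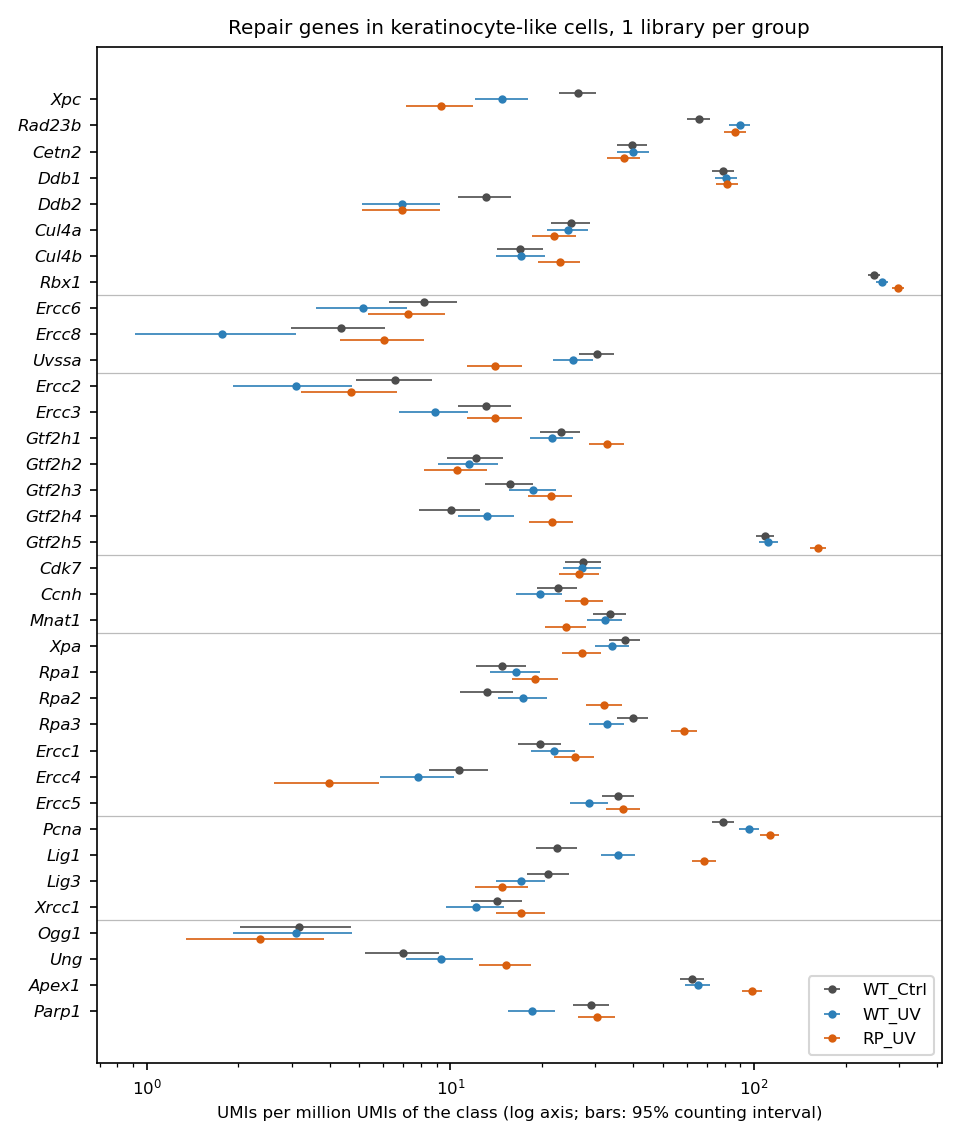
Levels of the 36 repair genes in keratinocyte-like cells of WT_Ctrl, WT_UV and RP_UV, grouped by role, in CPM on a log axis with exact Poisson 95% intervals (counting error only, 1 library per group). Xpc and Ddb2 lie highest in WT_Ctrl, and Lig1 and Rpa2 highest in RP_UV.

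A single gene, Lig1, was called higher after UVB in wild-type keratinocyte-like cells. Lig1 is the ligase that seals replication and repair nicks. Its level was 22.4 CPM (19.2 to 26.0) in WT_Ctrl. It was 35.6 CPM (31.3 to 40.4) in WT_UV and reached 68.5 CPM (62.4 to 75) in RP_UV, with no overlap between these intervals. The ratio for WT_UV over WT_Ctrl was 1.59 (1.30 to 1.95), but with an upper limit of 4000 genes per cell in every library it was 0.741, and as a mean over cells it was 1.07. Over all classes, the higher gene limit of WT_UV kept 1112 cells whose gene count was removed in the other libraries. With the limit of 4000, 352 of the 472 keratinocyte-like cells of WT_UV remained. Cells of WT_UV also held more UMIs, with a median of 10557 against 4246 in WT_Ctrl. The same gene limit therefore does not leave like cells in both libraries. Xpc and Ddb2 stayed below 1 under that limit, at 0.697 and 0.687, and no longer passed 1.5 times. Both calls were also lost with cells thinned to 2000 UMIs and with means over cells. Each gene was thus called lower under 5 of 8 other ways of processing. Their ratios stayed below 1 in all 8 and reached 0.697 for Xpc and 0.795 for Ddb2.

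Cox-2 overexpression was examined by comparing RP_UV with WT_UV. In keratinocyte-like cells, Ercc8, Lig1, Rpa2, Rpa3, the TFIIH subunits Ercc3, Gtf2h1 and Gtf2h4 and the base excision genes Ung, Apex1 and Parp1 were called higher in RP_UV, whereas Xpc, Uvssa and Ercc4 were called lower. Other genes of the same roles, among them Pcna, Rpa1, Gtf2h2, Gtf2h3, Gtf2h5, Ercc2 and Ogg1, were not past the limit. The summed level was 1500 CPM (1471 to 1529) in RP_UV, 1.20 times (1.16 to 1.23) that of WT_UV, and the median log2 ratio was 0.22 beside 0.04 over all 11561 genes. There were 10 genes called higher and 3 lower, beside 13.1% and 11.2% of all genes. Against WT_Ctrl, which shared its sequencing run, the summed ratio was 1.21 (1.18 to 1.25), the median log2 ratio 0.17 beside -0.08 over all 11673 genes, and 5 genes were called higher and 4 lower, beside 14.6% and 19.5%.

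Among the higher genes, Lig1 had a ratio over WT_UV of 1.92 (1.64 to 2.26), and its ratio over WT_Ctrl was 3.06 (2.56 to 3.67). Rpa2, a subunit of the protein that coats single-stranded DNA, was at 13.2 CPM (10.7 to 16.0) in WT_Ctrl, 17.3 (14.3 to 20.7) in WT_UV and 32.0 (27.9 to 36.6) in RP_UV. RP_UV stood apart from both other libraries, and the ratio over WT_Ctrl was 2.43 (1.91 to 3.11). Ung, the glycosylase that removes uracil, was at 6.99, 9.31 and 15.2 CPM, 2.18 times higher (1.55 to 3.09) in RP_UV than in WT_Ctrl. Gtf2h4, a TFIIH subunit, was at 10.0, 13.2 and 21.6 CPM with a ratio of 2.15 (1.62 to 2.88), and Apex1 was at 62.5, 65.2 and 98.3 CPM with a ratio of 1.57 (1.4 to 1.77). Rpa3, Ercc8, Ercc3, Gtf2h1 and Parp1 were called higher over WT_UV alone, at 1.52 to 3.41 times. The largest ratio was that of Ercc8, which at 1.77 CPM was the lowest of the repair genes in WT_UV. Under 8 other ways of processing, the call over WT_UV held in 8 for Rpa3 and in 7 for Lig1 and Rpa2. It held in 6 for Ercc8, Gtf2h4 and Parp1, in 5 for Gtf2h1 and Ung, and in 4 for Ercc3 and Apex1. For Parp1, at 30.4 CPM in RP_UV, the ratio over WT_Ctrl was 1.04 (0.859 to 1.27). Pcna, the sliding clamp of DNA synthesis, was at 79.1, 96.3 and 113 CPM, under the limit in each comparison, with 1.43 times (1.28 to 1.59) over WT_Ctrl.

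Among the lower genes, Uvssa, which recruits TFIIH to the stalled polymerase, was at 30.3 CPM (26.5 to 34.5) in WT_Ctrl, 25.4 (21.8 to 29.5) in WT_UV and 14.0 (11.3 to 17.1) in RP_UV. The wild-type intervals overlapped and RP_UV lay below both, with a ratio over WT_UV of 0.552 (0.425 to 0.713), and the ratio over WT_Ctrl was 0.463 (0.36 to 0.590). Ercc4, the catalytic subunit of the nuclease that cuts on the 5′ side of the lesion, was at 10.7, 7.83 and 3.99 CPM, and its ratio over WT_Ctrl was 0.373 (0.232 to 0.583). Its partner Ercc1 was at 19.8, 21.9 and 25.7 CPM. Xpa, which verifies the lesion, was at 37.4, 34.1 and 27.2 CPM with a ratio of 0.725 (0.599 to 0.876) over WT_Ctrl, under the limit. The Xpc, Uvssa and Ercc4 ratios for RP_UV over WT_Ctrl were called lower under each of 8 other ways of processing, with ranges that for Xpc ran from 0.238 to 0.431. Over WT_UV each of these 3 genes was called lower under 5 of the 8, with ratios that reached 0.781 for Xpc, 0.984 for Uvssa and 0.586 for Ercc4.

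By role, the summed level of the 3 transcription-coupled genes in RP_UV was 0.637 times (0.529 to 0.766) that of WT_Ctrl, which followed Uvssa, while Ercc8 was at 4.35 and 6.05 CPM and Ercc6 at 8.17 and 7.23 CPM. In contrast, the 7 TFIIH core genes reached 1.42 times (1.32 to 1.52), the 4 gap-filling genes 1.56 (1.44 to 1.69) and the 4 base excision genes 1.44 (1.31 to 1.58). Single genes led these sums too. In RP_UV, Gtf2h5 held 162.5 of 267.5 CPM, Pcna 112.8 of 213 CPM and Apex1 98.3 of 146 CPM. Neither Gtf2h5 nor Pcna was itself called, but Gtf2h5, at 108.4 CPM in WT_Ctrl, lay only just under the limit. Its ratio for RP_UV over WT_Ctrl was above 1 in 7 of 7 keratinocyte-like clusters and called higher in 2. In macrophage-like cells Gtf2h5 was at 95.4 CPM in WT_Ctrl and 133.9 CPM in RP_UV, not called, and above 1 in 10 of 10 clusters. It was called higher at 1.59 times in dendritic-like and in T-like cells. The 3 genes of the TFIIH kinase were at 0.938 times (0.834 to 1.05). The sum for global recognition, 1.10 times (1.05 to 1.15), was led by Rbx1, while Xpc and Ddb2 in the same group were lower.

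**Figure D2:**
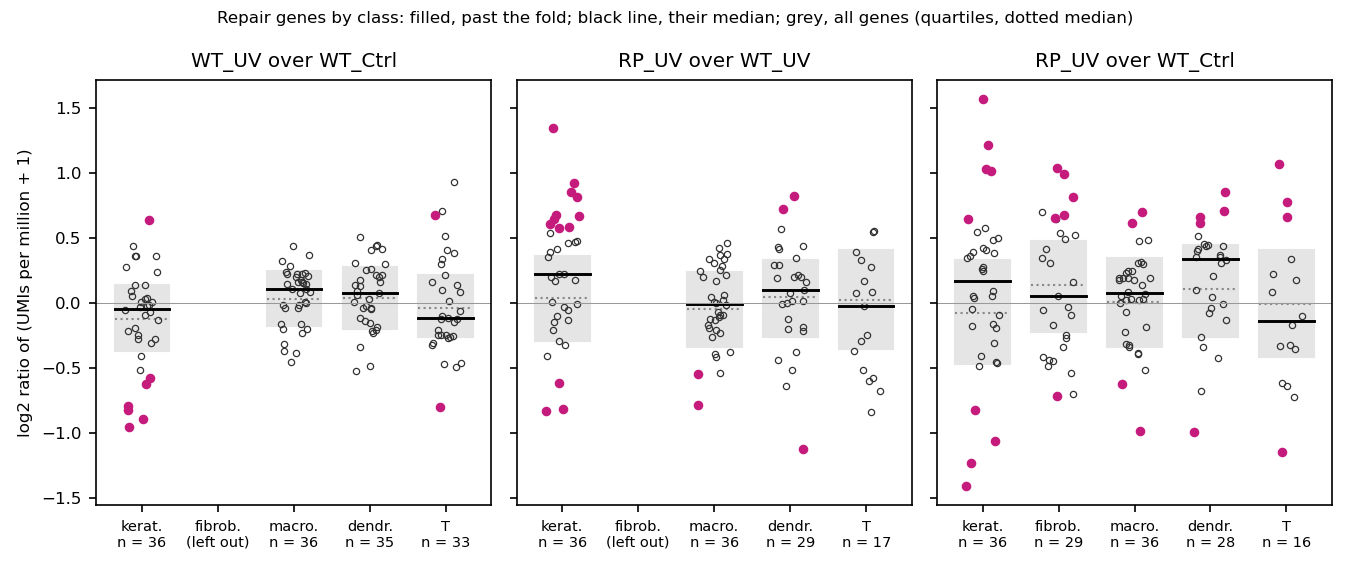
Log2 ratios of the repair genes for each comparison (columns) in each class, on levels in CPM plus 1. In keratinocyte-like cells Xpc is lowest and Lig1 highest in RP_UV over WT_Ctrl, and in macrophage-like cells the median of the genes was 0.11 (WT_UV over WT_Ctrl).

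The keratinocyte-like cells of the libraries also differed in state and in markers. The 18 genes of an S and G2/M phase list summed to 523 CPM in WT_Ctrl, 625 in WT_UV and 1335 in RP_UV, and 17 of the 18 were called higher in RP_UV over each wild-type library. The wound keratins Krt6a, Krt6b, Krt16 and Krt17 summed to 994, 3126 and 7243 CPM, basal keratinocyte genes to 17175, 14122 and 21138 CPM, and suprabasal genes to 11893, 16232 and 11646 CPM. Sebocyte markers summed to 528, 1622 and 1624 CPM and macrophage markers to 218, 210 and 493 CPM in this class. The part of these differences in the repair gene values was not tested, except as the next paragraphs measure it for the cell cycle and for clusters.

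Repair genes differed between keratinocyte-like cells with and without a UMI of the S and G2/M list. In WT_Ctrl, Lig1 was at 39.1 CPM in 432 cells with such a UMI and 9.03 CPM in 705 cells without, 4.33 times higher (3.00 to 6.39). The same ratio was 4.52 (2.76 to 7.91) in WT_UV and 6.14 (4.08 to 9.69) in RP_UV. Rpa2 was 3.37 times higher (2.14 to 5.45) in cells with a cycle UMI in WT_Ctrl and 8.76 times (4.36 to 20.6) in RP_UV. Pcna followed at 1.55 and 2.83 times. Xpc did not separate the cells in this way, at 28.1 and 24.7 CPM in WT_Ctrl, a ratio of 1.14 (0.853 to 1.52), and its ratios of 1.68 (0.987 to 3.01) in WT_UV and 1.78 (0.894 to 3.92) in RP_UV had intervals that took in 1. Ercc4 had a ratio of 0.902 (0.562 to 1.43) in WT_Ctrl. The cells without a cycle UMI were shallower, with medians of 5717, 3906 and 3284 UMIs against 7030, 18093 and 8253, so the split also follows depth.

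Among cells without a cycle UMI alone, the ratios for RP_UV over WT_Ctrl of the genes compared here were smaller, except that of Uvssa. Rpa2 went from 2.43 to 0.733 for RP_UV over WT_Ctrl and Parp1 from 1.04 to 0.550, and Lig1 from 3.06 to 1.56. Gtf2h4 went from 2.15 to 1.11, Ung from 2.18 to 1.06 and Apex1 from 1.57 to 1.11, none of them still called. Sums by role were not recomputed in these cells. Xpc went from 0.354 to 0.238 and Ddb2 from 0.532 to 0.340, farther below 1. Uvssa was at 32.1 CPM in WT_Ctrl and 17.6 CPM in RP_UV, a ratio nearer 1 than the 0.463 of all cells. Ercc4 was at 11.2 and 4.12 CPM, and both genes were still called lower in this comparison. For RP_UV over WT_UV, Uvssa went from 0.552 to 0.984 and was no longer called, and Xpc, at 0.598 (0.245 to 1.38), and Ercc4, at 0.419 (0.147 to 1.06), had intervals that took in 1. For WT_UV over WT_Ctrl, Xpc was at 0.398 and Ddb2 at 0.477 in these cells, while Lig1 was at 1.09.

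**Figure D3:**
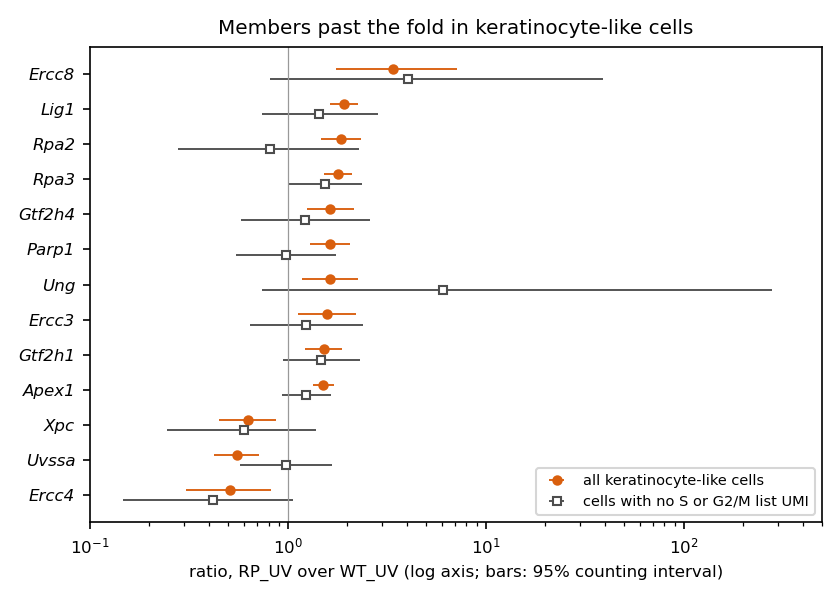
Ratios of RP_UV over WT_UV for the 13 repair genes called in keratinocyte-like cells, in all cells and in cells with no UMI of the S and G2/M phase list, on a log axis with 95% counting intervals. Without the cells that hold a cycle UMI, Rpa2 and Parp1 lie below 1, at 0.814 and 0.980, and of the 3 lower genes Xpc is at 0.598, Ercc4 at 0.419 and Uvssa at 0.984, each with an interval that takes in 1.

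The keratinocyte-like cells fell into 7 clusters, and the libraries were also compared inside each of them. Cells of one cluster still differed in state between libraries, so the ratios inside clusters are not matched for state. Wound keratins summed to 147 CPM in WT_Ctrl and 821 CPM in RP_UV in the basal cluster led by Fcgbp and Col17a1. In the suprabasal cluster led by Mt4 and Krt1 they summed to 57.9 and 3658 CPM. These ratios were computed after the class values had been seen. Xpc was highest in WT_Ctrl in the basal cluster led by Fcgbp and Col17a1, at 43.3 CPM, against 18.6 CPM in the suprabasal cluster led by Mt4 and Krt1. For RP_UV over WT_Ctrl the Xpc ratio was 0.419 (0.216 to 0.749) in the first and 0.414 (0.199 to 0.799) in the second. It was 0.469 (0.221 to 0.946) in a cluster led by Ptn and Sostdc1. For WT_UV over WT_Ctrl, Xpc lay below 1 in 5 of 6 clusters and was called lower in 1, the basal cluster, at 0.626 (0.416 to 0.923), and Ddb2 lay below 1 in 5 of 6 and was called in 0. The basal cluster made up 33.4% of the class in WT_Ctrl, 18.2% in WT_UV and 11.6% in RP_UV. Other clusters rich in basal genes went the other way in RP_UV. A cluster led by Krt5 and Krt15 made up 6.95%, 6.14% and 12.8%, and a cycling cluster led by Cenpf 4.40%, 6.36% and 18.1%. For RP_UV over WT_Ctrl, Xpc lay below 1 in 6 of 7 clusters, and the remaining cluster, led by Krt6b, had 1 and 0 UMIs. Ddb2 and Uvssa lay below 1 in 7 of 7 clusters, Uvssa past the limit in 3 and at 0.991 in the cluster led by Krt6b, and Ddb2 past it in none, at 1 to 49 UMIs of Ddb2 per library and cluster.

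Lig1 and Rpa2 differed between clusters. In the basal cluster Lig1 was at 20.6 CPM in WT_Ctrl and 79.5 CPM in RP_UV, a ratio of 3.86 (2.59 to 5.78), and Rpa2 at 11.3 and 43.3 CPM, a ratio of 3.81 (2.20 to 6.64). The S and G2/M list summed to 150 CPM in WT_Ctrl and 692 CPM in RP_UV in this cluster as well. In the cycling cluster, led by Cenpf and histone genes, Lig1 was at 117 CPM in WT_Ctrl, 172 in WT_UV and 148 in RP_UV, with a ratio of 1.26 (0.94 to 1.73) for RP_UV over WT_Ctrl and 0.856 (0.689 to 1.07) over WT_UV. Rpa2 was at 56.2, 77.9 and 64.5 CPM there, with a ratio of 1.15 (0.745 to 1.83). Pcna was at 210, 284 and 203 CPM in the cycling cluster, above its level in the other keratinocyte-like clusters compared. This cluster held 50 WT_Ctrl cells, 30 WT_UV cells and 167 RP_UV cells.

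**Figure D4:**
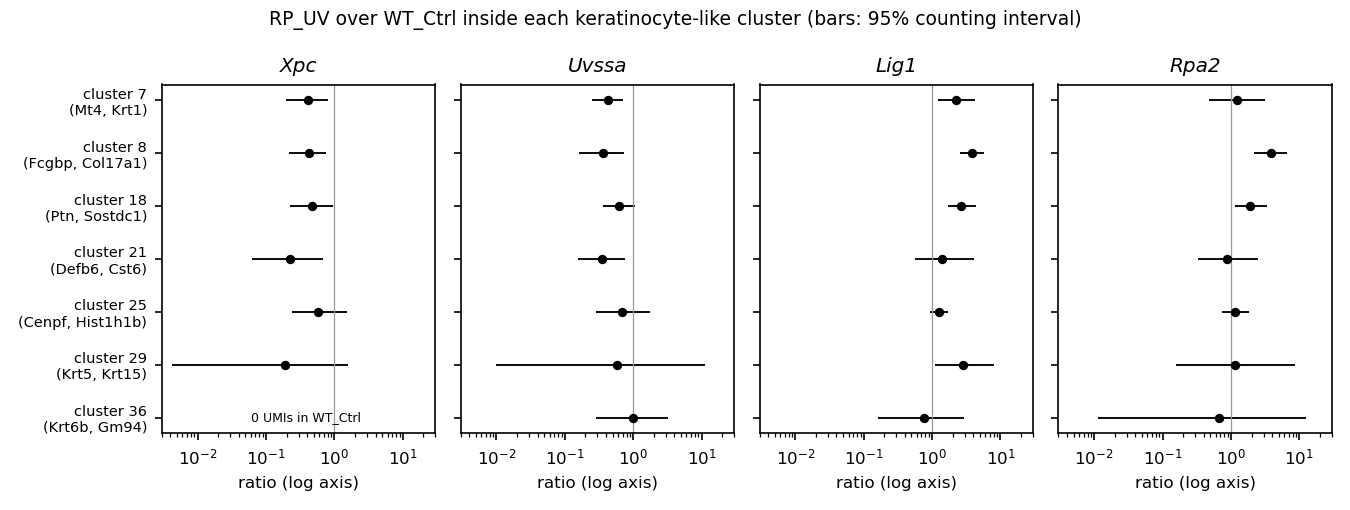
Ratios of RP_UV over WT_Ctrl for Xpc, Uvssa, Lig1 and Rpa2 in each of 7 keratinocyte-like clusters, on a log axis with 95% counting intervals. Xpc and Uvssa lie at or below 1 wherever both libraries had UMIs, and Lig1 and Rpa2 are highest in the basal cluster.

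As Rpa2 and Lig1 were higher along with cycle genes, the windows of 250 bases before the gene start were searched for short motifs on both strands, in the RefSeq table of the GRCm38.p6 build. Windows were found for 32 of the 36 genes, without Xpc, Ddb2, Ercc3 and Ccnh. Shares are set against all 27025 genes with a window, which were not limited to genes measured in these cells. Whether the repair genes differ from other measured genes in these motifs was not tested. The GC box GGGCGG was in 22 of 32 (68.8%) against 35.4% of 27025 genes, and CCAAT in 17 (53.1%) against 37.5%. The TATA box TATAAA was in none, against 14.3% of all genes. The letters GCGGGAA, the core of sites bound by E2F, which drives S phase genes, were in 5 (15.6%) against 4.38%, in Rbx1, Gtf2h1, Gtf2h3, Rpa2 and Ercc5. Lig1 and Pcna did not hold these letters in this window. Rpa2 is shown because it was the one gene called in keratinocyte-like cells of RP_UV over WT_Ctrl whose window overlapped neither its own nor another gene. It lies on the plus strand at chr4:132768110-132768359, and capitals mark 3 CCAAT boxes, written ATTGG on this strand, and 1 E2F core:
Rpa2: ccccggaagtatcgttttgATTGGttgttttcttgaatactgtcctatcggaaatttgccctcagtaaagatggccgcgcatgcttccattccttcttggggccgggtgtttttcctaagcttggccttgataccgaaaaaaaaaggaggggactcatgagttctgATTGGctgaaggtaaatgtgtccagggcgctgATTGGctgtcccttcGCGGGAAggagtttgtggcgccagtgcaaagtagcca
A match of letters is a description and not a bound site.

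In macrophage-like cells, the largest class, no repair gene passed the limit after UVB in the wild type. The summed level was 1082 CPM (1060 to 1105) in WT_Ctrl and 1166 (1154 to 1178) in WT_UV, a ratio of 1.08 (1.05 to 1.10), and the median log2 ratio was 0.11 beside 0.03 over all 11457 genes. None of the 36 genes was called, higher or lower, beside 9.28% and 6.11% of all genes, and 23 of 36 ratios lay above 1. Xpc was at 14.6 CPM (12.1 to 17.4) in WT_Ctrl, 16.3 (14.9 to 17.8) in WT_UV and 14.9 (12.8 to 17.1) in RP_UV, with overlapping intervals, and its ratio for WT_UV over WT_Ctrl was 1.12 (0.916 to 1.37). Ddb2 was at 4.30, 4.32 and 3.05 CPM. A list of 12 p53 targets, which include stress response genes such as Cdkn1a and Mdm2, summed to 397, 732 and 721 CPM in the same cells, 1.85 times higher (1.78 to 1.92) in WT_UV than in WT_Ctrl, with 6 of 11 measured genes called higher. In keratinocyte-like cells that list summed to 882, 848 and 702 CPM, and 0 of its 12 genes were called for WT_UV over WT_Ctrl. These sums too follow a few genes. The median level over the 12 genes was 19.9, 24.5 and 24.9 CPM in keratinocyte-like cells of WT_Ctrl, WT_UV and RP_UV. In macrophage-like cells this median was 14.3, 18.6 and 11.6 CPM.

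The calls among repair genes of macrophage-like cells all involved RP_UV, and were few beside those of all genes. Over WT_UV, 0 were called higher and 2 lower, beside 9.1% and 14% of all genes. Over WT_Ctrl, 2 were called higher and 2 lower, beside 13.8% and 13.9%. Uvssa was at 23.5 CPM (20.4 to 27.1) in WT_Ctrl, 20.4 (18.9 to 22.1) in WT_UV and 11.4 (9.65 to 13.4) in RP_UV. RP_UV lay below both wild-type libraries, as in keratinocyte-like cells, with a ratio of 0.486 (0.390 to 0.605) over WT_Ctrl. Uvssa was below 1 in 10 of 10 macrophage-like clusters in that comparison. Ercc4 was at 8.24, 9.81 and 6.42 CPM, with 0.654 (0.506 to 0.838) over WT_UV and 0.779 (0.559 to 1.09) over WT_Ctrl. The Ercc4 call over WT_UV held under 2 of 8 other ways of processing, with ratios of up to 0.849.

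Xpa was at 53.6 CPM (48.8 to 58.8) in macrophage-like cells of WT_Ctrl, 39.0 (36.9 to 41.3) in WT_UV and 34.6 (31.5 to 38.0) in RP_UV. The intervals of WT_Ctrl and of the irradiated libraries did not overlap. The ratio was 0.728 (0.653 to 0.813) for WT_UV over WT_Ctrl, under the limit, and 0.645 (0.565 to 0.738) for RP_UV over WT_Ctrl, and both lay below 1 in 10 of 10 clusters. Rbx1 was at 207 CPM (198 to 217), 244 (238 to 249) and 318 (308 to 328), each interval apart from the others, with a ratio of 1.53 (1.45 to 1.62) for RP_UV over WT_Ctrl that lay above 1 in 10 of 10 clusters. Gtf2h3, a TFIIH subunit at 2.99, 4.0 and 5.48 CPM, had a ratio of 1.84 (1.15 to 3.03). Pcna, at 98.8, 115 and 113 CPM, and Parp1, at 50.5, 53.8 and 62.6 CPM, stayed under the limit. The S and G2/M list was low in this class, at 95.4, 111 and 127 CPM. Neutrophil markers summed to 36.1, 72.4 and 450 CPM and red blood cell markers to 1.20, 0.80 and 143 CPM, and their part in the Rbx1 and Uvssa values was not tested.

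**Figure D5:**
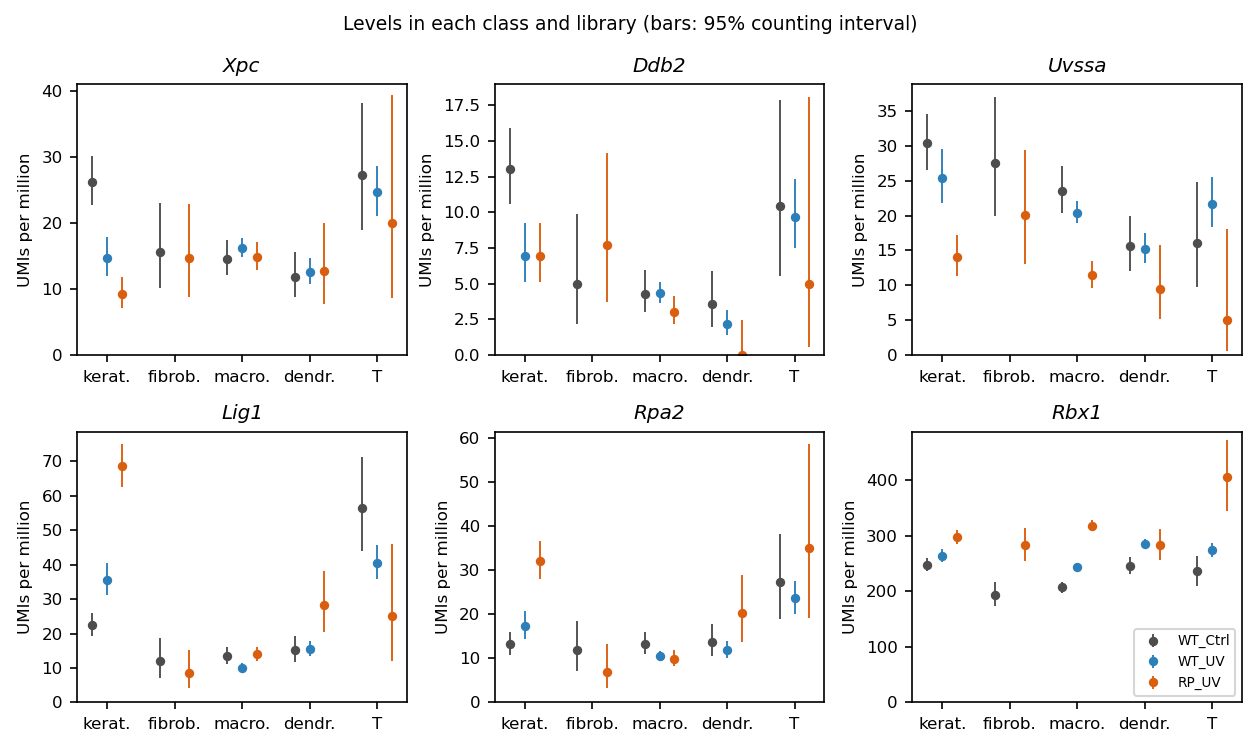
Levels of Xpc, Ddb2, Uvssa, Lig1, Rpa2 and Rbx1 by class and library in CPM, with exact Poisson 95% intervals. Uvssa is lowest in RP_UV in every class and was called lower only in keratinocyte-like and macrophage-like cells. The Xpc difference is seen in keratinocyte-like but not in macrophage-like cells.

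The remaining classes were smaller. In fibroblast-like cells, 29 of the 36 genes had enough UMIs, and 5 were called higher and 1 lower in RP_UV over WT_Ctrl, beside 15% and 7.2% of all genes. Apex1 was at 21.3 and 44.7 CPM, a ratio of 2.10 (1.35 to 3.31), Parp1 at 15.0 and 30.8 CPM, a ratio of 2.05 (1.21 to 3.56), and Pcna at 37.5 and 67.1 CPM, a ratio of 1.79 (1.27 to 2.53). Cetn2, a partner of Xpc, and Ccnh, the cyclin of the TFIIH kinase, were at 1.62 and 1.60 times. Xpa was at 58.8 CPM in WT_Ctrl and 35.5 CPM in RP_UV, a ratio of 0.603 (0.414 to 0.867). The fibroblast markers summed to 119278 CPM in WT_Ctrl and 37290 CPM in RP_UV, and the S and G2/M list to 32.5 and 94.8 CPM, and their part in these values was not tested. Xpc in fibroblast-like cells was at 15.6 and 14.7 CPM, and Ddb2 at 5.0 and 7.71 CPM.

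In dendritic-like cells, 0 of 35 genes were called for WT_UV over WT_Ctrl, beside 9.3% higher and 6.28% lower among all genes. RP_UV over WT_Ctrl gave 4 higher and 1 lower of 28 genes, beside 15.9% and 8.81%, with Lig1 at 1.86 times (1.23 to 2.79) and Ercc5, the nuclease of the 3′ side, at 0.485 times (0.286 to 0.783). RP_UV over WT_UV gave 2 higher and 1 lower of 29 genes, beside 9.98% and 7.81%. Ddb2 had 0 UMIs in dendritic-like cells of RP_UV, and was at 3.56 CPM in WT_Ctrl and 2.19 CPM in WT_UV. In WT_Ctrl, WT_UV and RP_UV the dendritic markers of this class summed to 1606, 1403 and 1175 CPM, macrophage markers to 1542, 2002 and 3725 CPM and neutrophil markers to 97.1, 260 and 2107 CPM, and their part was not tested.

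In T-like cells, 1 of 33 genes was called higher and 1 lower for WT_UV over WT_Ctrl, beside 5.93% and 4.73% of all genes: Apex1 at 1.64 times (1.03 to 2.75) and Ercc1 at 0.559 times (0.369 to 0.868). RP_UV over WT_Ctrl could be followed for 16 genes, of which 3 were called higher and 1 lower, beside 13.9% and 11.5%. Rbx1 was at 236 and 405 CPM, a ratio of 1.72 (1.41 to 2.09), and Lig1 at 56.3 and 25 CPM, from 70 and 10 UMIs, a ratio of 0.444 (0.204 to 0.866). The part of the red blood cell, macrophage, neutrophil and muscle markers of this class in these values was not tested. RP_UV over WT_UV gave 0 called of 17, beside 15.1% higher and 10.4% lower.

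A further 41 genes of the same pathways, not among the 36, were read in the same way. In keratinocyte-like cells 2 of 39 were called higher and 0 lower for WT_UV over WT_Ctrl, beside 6.9% and 11.2% of all genes. For RP_UV over WT_UV 11 of 40 were higher and 0 lower, beside 13.1% and 11.2%, and for RP_UV over WT_Ctrl 13 of 40 were higher and 2 lower, beside 14.6% and 19.5%. The largest of the last comparison also serve replication: Pole, the leading-strand polymerase, had a ratio of 3.52, Fen1, the flap nuclease, 2.97, Rfc5, a clamp loader subunit, 2.33, and Pold1, the lagging-strand polymerase, 2.15. Polb, the gap-filling polymerase of base excision repair, was called lower at 0.574, and Aptx, which cleans blocked ends, at 0.624. In macrophage-like cells 0 of 38 were called higher and 2 lower for WT_UV over WT_Ctrl, Neil2, a glycosylase for oxidised bases, at 0.386 and Pold1 at 0.659, beside 9.28% and 6.11% of all genes. For RP_UV over WT_Ctrl 5 were higher and 2 lower of 38, beside 13.8% and 13.9%. Polk of this list is also in the p53 list.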

How the data were processed

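Dorsal skin suspensions enriched for CD45+ cells gave 3 mouse single-cell libraries (10x 3′ chemistry), 1 per group. Values deposited by the authors are raw UMI counts for each gene and barcode, made with Cell Ranger and the mm10 genome (GRCm38) per the labels and file headers, restricted to called cells and not normalized. Cell filters followed the study (mitochondrial share under 10%, over 200 genes, under 4000 genes, or under 6000 in WT_UV), normalized with SCTransform (sctransform 0.4.2), integrated in Seurat 5.3.0 under R 4.3.3 with 30 dimensions and clustered at resolution 2 into 45 clusters. Repair genes were left out of the integration features, so that classes did not rest on them. Clusters were named from 20 marker panels. The limits of the naming rule were set after the clusters had been seen, 7 clusters stayed unnamed, and unnamed cells made up 7.36% of WT_Ctrl, 9.86% of WT_UV and 11.1% of RP_UV. No doublet caller was used, as the methods of the study name none, and the 5% of cells with the most UMIs were left out as an alternative.

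For each class, raw UMIs were summed per library and divided by the UMIs of all genes (CPM), in Python 3.11.15 with SciPy 1.17.1. A gene entered a comparison with an expected count of at least 10 in the shallower library. Medians of log2 ratios used a pseudocount of 1 CPM, and a floor is 3 counts. Genes named are the members past the limit (at most 8 each way), plus Xpc, Ddb2, Xpa, Pcna and Parp1, and at most 4 other repair genes each way. The members, lists and comparisons were chosen with earlier results of these data known. The interval code was tested on simulated data. Other ways of processing were tried: classes from marker UMIs, clusters without integration, at most 4000 genes per cell for all libraries, cells thinned to 2000 UMIs, cells without an S or G2/M phase UMI, means over cells, median-ratio scaling, a fold of 2, an expected count of at least 20, a pseudocount of 10 CPM and no filter. Coordinates and promoter windows come from RefSeq tables of GRCm38.p6.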

Additional observations from a re-analysis of the deposited data

Results flagged for a closer look

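Lig1 was flagged because its ratio for RP_UV over WT_Ctrl was past the limit in opposite directions in different classes: it was 3.06 in keratinocyte-like cells and 1.86 in dendritic-like cells, but 0.444 in T-like cells. The difference between the classes was not tested, since each group had 1 library. The T-like value rested on 10 UMIs in RP_UV and 70 in WT_Ctrl, in 162 and 409 cells. It was 1.16 with classes taken from marker UMIs and 1.85 without cells that held an S or G2/M phase UMI. The S and G2/M phase list summed to 857 CPM in T-like cells of WT_Ctrl and 340 CPM in RP_UV, and to 523 and 1335 CPM in keratinocyte-like cells. Macrophage markers summed to 1132 CPM in T-like cells of WT_Ctrl and 4180 CPM in RP_UV, and their part in the Lig1 value was not tested.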

How the results depend on the processing

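No paired analysis was possible because each group had 1 library. The medians over the repair genes stayed within the medians of the single-gene counting limits in all 128 recomputed values. Those limits have the width of a typical single gene, which is wide for a median over many genes. The count therefore cannot show that the medians were stable. Of the counts of called genes 76 stayed within 1.5 times and 52 moved, of the summed ratios 58 stayed, 17 moved and 1 reversed, and of the ratios of named genes 541 stayed, 54 moved and 13 reversed. The cause was not tested unless the setting itself leaves fewer cells or genes. The counts that moved, the summed ratios that moved or reversed and the 13 ratios of named genes that reversed follow by setting. The 54 ratios of named genes that moved without reversing are not listed here, so a ratio absent below is not thereby stable. Comparisons are WT_UV over WT_Ctrl (first), RP_UV over WT_UV (second) and RP_UV over WT_Ctrl (last), with the reported value in brackets.

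With at most 4000 genes per cell, called genes numbered 3 [7] in keratinocyte-like, 3 [0] in dendritic-like and 5 [2] in T-like cells (first), and 6 [2] in macrophage-like and 3 [0] in T-like cells (second). Summed ratios were 0.946 [1.01], 1.04 [1.08] and 1.04 [1.11] in keratinocyte-like, macrophage-like and dendritic-like cells (first), and 1.28 [1.20], 1.12 [1.08] and 1.13 [1.06] (second). The Lig1 ratio in keratinocyte-like cells was 0.741 [1.59] (first).

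With cells thinned to 2000 UMIs, called genes numbered 3 [7] in keratinocyte-like, 1 [0] in dendritic-like and 1 [2] in T-like cells (first), 8 [13] in keratinocyte-like, 6 [2] in macrophage-like and 1 [3] in dendritic-like cells (second), and 3 [6] in fibroblast-like, 7 [4] in macrophage-like, 1 [5] in dendritic-like and 2 [4] in T-like cells (last). Summed ratios were 1.05 [1.08] in macrophage-like cells (first), 1.25 [1.20] in keratinocyte-like and 1.12 [1.08] in macrophage-like cells (second) and 1.09 [1.18] in fibroblast-like cells (last). Ercc6 was at 1.37 [0.633] and Ercc2 at 1.15 [0.471] in keratinocyte-like cells (first).

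Without cells that held a cycle UMI, called genes numbered 1 [0] in macrophage-like and 2 [0] in dendritic-like cells (first), 2 [13] in keratinocyte-like, 1 [3] in dendritic-like and 2 [0] in T-like cells (second), and 2 [6] in fibroblast-like, 3 [5] in dendritic-like and 2 [4] in T-like cells (last). Summed ratios were 0.982 [1.01] in keratinocyte-like and 1.07 [1.02] in T-like cells (first), 1.06 [1.20] in keratinocyte-like cells (second), and 1.04 [1.21] in keratinocyte-like and 1.18 [1.04] in T-like cells (last). Rpa2 was at 0.814 [1.85] and Parp1 at 0.980 [1.63] (second) and Rpa2 at 0.733 [2.43] (last) in keratinocyte-like cells, and Lig1 at 1.85 [0.444] in T-like cells (last).

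With clusters made without integration, called genes numbered 2 [0] in dendritic-like cells (first), 4 [2] in macrophage-like, 0 [3] in dendritic-like and 1 [0] in T-like cells (second), and 3 [5] in dendritic-like and 1 [4] in T-like cells (last). Summed ratios in dendritic-like cells were 1.16 [1.11] (first) and 0.981 [1.06] (second). Lig1 was at 0.728 [1.82] (second) and 0.963 [1.86] (last) in dendritic-like cells, and Gtf2h5 at 0.948 [1.59] and Apex1 at 0.966 [2.17] in T-like cells (last). With classes from marker UMIs, called genes numbered 1 [2] in T-like cells (first), 1 [2] in macrophage-like cells (second) and 0 [4] in T-like cells (last), the summed ratio in dendritic-like cells was 1.03 [1.11] (first), and Lig1 was at 1.16 [0.444] and Apex1 at 0.951 [2.17] in T-like cells (last). That setting left 3 dendritic-like cells in RP_UV and gave no value for them.

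A fold of 2 left 2 [7] keratinocyte-like and 0 [2] T-like calls (first), 1 [13], 0 [2] and 1 [3] in keratinocyte-like, macrophage-like and dendritic-like cells (second), and 2 [6], 1 [4], 1 [5] and 2 [4] in fibroblast-like, macrophage-like, dendritic-like and T-like cells (last). Means over cells gave 1 [0] in macrophage-like cells (first), 4 [2] in macrophage-like and 1 [0] in T-like cells (second) and 3 [5] in dendritic-like cells (last). Leaving out the 5% of cells with the most UMIs gave 1 [0] in dendritic-like cells (first), 1 [2] in macrophage-like and 1 [0] in T-like cells (second) and 2 [4] in T-like cells (last). Median-ratio scaling gave 1 [2] in macrophage-like (second) and 3 [5] in dendritic-like cells (last), and an expected count of at least 20 gave 2 [4] in T-like cells (last). That scaling shifts all log2 ratios by the median of all genes, which was past 0.1 in size at -0.13 in keratinocyte-like cells (first), 0.15 in fibroblast-like and 0.11 in dendritic-like cells (last).

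The main limits are 1 library per group, a sequencing run that differs for WT_UV, a higher depth per cell there, and few UMIs for genes such as Ogg1, Ercc8 and Ercc2.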
